A study of Mus musculus with 4 samples.

Results

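Keratins are the intermediate filament proteins of epithelial cells, and together with a few transcription factors they tell the cell layers of the mammary gland apart. The glucocorticoid receptor (GR) is a hormone-activated transcription factor, and where it bound after corticosterone was described here around 10 such genes: the keratin genes Krt5, Krt7, Krt8, Krt14, Krt18 and Krt19, and the transcription factor genes Trp63, Gata3, Elf5 and Stat5a. They are 10 of the 21631 protein-coding genes on chromosomes 1 to 19 and X in the RefSeq annotation. A site was assigned to a gene when the centre of a listed peak lay in the gene's span or within 100 kb of it, which gave 8 of the 2883 peaks listed at 12 h, 15 of the 5638 listed at 1 h and none of the untreated list, which holds 1 peak.

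The data are chromatin immunoprecipitation and sequencing (ChIP-seq) peak lists of GR from 33AP1C9 cells, a line descended from the mouse mammary epithelial line C127, which carries an integrated MMTV reporter with PP7 RNA loops and expresses GFP-tagged PP7 coat protein. Cells were held for 48 h in medium with charcoal-stripped serum and were then given no hormone, or corticosterone at 600 nM lasting 1 h or 12 h, with 1 library per condition and no replicate. All groups share the line and its reporter, and the labels give a different catalogue number for the second antibody of the mix in each sample. Libraries held 79203826 tags in untreated cells, 90556119 at 1 h and 97749688 at 12 h. Peak lists carry no expression values, so the epithelial label of the line could not be checked against its markers.

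As background, keratins work in pairs of a type I and a type II protein, and their genes sit in a type II cluster on mouse chromosome 15 and a type I cluster on chromosome 11. Krt8 and Krt18 form the pair of simple and luminal epithelium, joined there by Krt7 and Krt19, whereas Krt5 and Krt14 form the pair of basal cells. Trp63 encodes p63, the regulator of the basal layer. Gata3 directs luminal fate, and Elf5 and Stat5a drive the secretory alveolar cells, in which GR is known to act with STAT5 on milk protein genes.

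Sites were listed near the luminal keratins Krt7, Krt8 and Krt18 and near basal Trp63 at both times, and near Krt19 at 1 h alone. Neither member of the basal pair, Krt5 and Krt14, nor any of the luminal and alveolar factors Gata3, Elf5 and Stat5a had one. With a site near 4 of 10 members at 12 h and 5 of 10 at 1 h, the shares stood beside 22.6% and 37.9% of all protein-coding genes, a difference of few genes that was not tested. The 3 sites near Krt8 and Krt18 lay within 100 kb of both genes and were counted once. For 10 of the 15 sites a member was the nearest protein-coding gene, and 4 sites lay inside a member's span. The annotation used gives gene spans and start sites, so exons and introns were not told apart.

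The promoters of the keratin genes whose start lies closest to a site, Krt7 and Krt8, are shown with that of Krt5, whose nearest site was far away. Each is the stretch of 250 bases before the start, from RefSeq (GRCm38.p6), on the strand of the gene, at chr15:101412153-101412402 (plus strand) for Krt7, chr15:102004343-102004592 (minus strand) for Krt8 and chr15:101712906-101713155 (minus strand) for Krt5.
Krt7: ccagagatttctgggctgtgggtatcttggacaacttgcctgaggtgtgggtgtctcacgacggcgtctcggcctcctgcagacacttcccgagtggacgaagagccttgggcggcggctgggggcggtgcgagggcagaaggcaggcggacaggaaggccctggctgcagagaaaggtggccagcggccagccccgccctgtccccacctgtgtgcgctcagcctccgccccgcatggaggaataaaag
Krt8: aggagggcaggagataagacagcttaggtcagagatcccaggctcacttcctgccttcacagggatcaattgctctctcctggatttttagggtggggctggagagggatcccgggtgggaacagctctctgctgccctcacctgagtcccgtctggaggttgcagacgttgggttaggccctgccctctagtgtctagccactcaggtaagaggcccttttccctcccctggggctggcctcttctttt
Krt5: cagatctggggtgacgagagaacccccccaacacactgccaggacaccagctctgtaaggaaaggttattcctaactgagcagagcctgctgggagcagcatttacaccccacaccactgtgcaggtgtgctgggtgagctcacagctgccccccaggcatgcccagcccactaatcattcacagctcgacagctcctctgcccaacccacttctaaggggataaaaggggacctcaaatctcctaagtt
Both strands were searched for the hexamer of the GR response element, AGAACA, and for the spaced core ACANNNTGT, which reads the same on both strands. Motif letters would be in capitals, and none of these 3 stretches holds either. In windows of 300 bases, from 250 before to 50 after the start, 18.97% of the 32851 RefSeq promoters held the hexamer and 6.85% the core. Promoter windows were listed for 8 of the members, 10 windows in all, of which 1 held the hexamer and 0 the core. The match lies just after the start of Krt18, in the 30 bases at chr15:102028229-102028258 (plus strand), with the hexamer, read on the other strand as TGTTCT, in capitals.
Krt18: cggcggaactccTGTTCTggtctctcgctt
Krt18 has no listed site closer to that start than 17.6 kb. These searches cover the promoter windows alone, and the sequence of the peaks was not used here.

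Krt7, a type II keratin of simple and glandular epithelium, had the most sites of the keratin members, with 3 at 12 h and 5 at 1 h. The strongest lay inside the gene, 1.96 kb downstream of its start (chromosome 15, 101414217 to 101414499). It held 66.2 normalised tags, scaled to a library of 10000000, at 12 h (95% Poisson interval 61.2 to 71.5), against 110.5 at 1 h (103.8 to 117.6). Such intervals, and those of the ratios below, measure counting error alone and no spread between replicates, since each condition has 1 library. They take each read as a separate molecule. Reads that carry no molecular identifier need not be, and the intervals are then too narrow. The untreated library held 21 and 19 raw tags in the 12 h and 1 h windows. The signal was thus high in both treated libraries and far lower in the untreated one, whose genome average gives 11.6 raw tags per 12 h window and 10.8 per 1 h window. The fold over the untreated library, a value of the authors' peak caller, was 24.96 at 12 h and 46.1 at 1 h, where a listed site needed at least 6. The site ranked 215 of 2883 by score at 12 h and 181 of 5638 at 1 h.

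**Figure D1:**
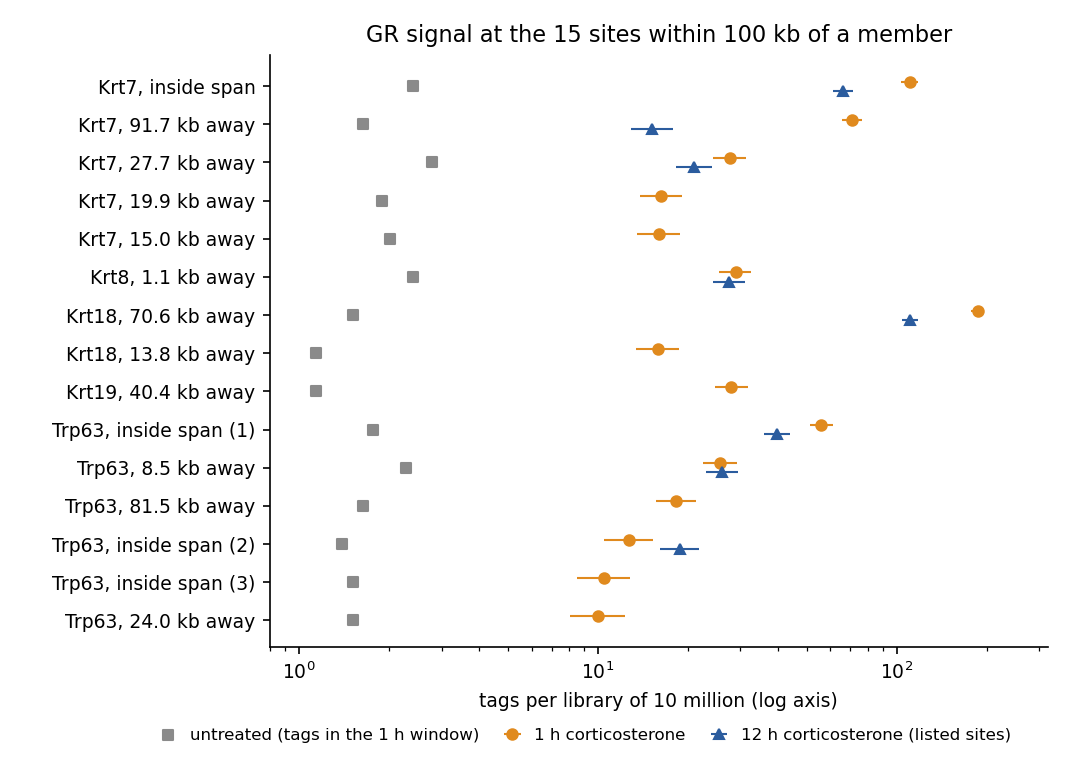
GR signal in normalised tags per library of 10000000 (log axis) at the 15 sites near members, grouped by gene, in untreated cells (squares, tags in the 1 h window), at 1 h (circles) and at 12 h (triangles, for the 8 sites listed then), with 95% Poisson intervals. Untreated values lie between 1.14 and 2.78 and every treated value lies above them, which listing required.

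The remaining Krt7 sites lay outside the gene. The site 91.7 kb before the start (101320603 to 101320885), which has Smim41 and Krt80 as its nearest genes at 23.3 and 27.6 kb, held 15.2 tags at 12 h, against 70.8 at 1 h. Its log2 ratio of 12 h over 1 h was -2.22 (95% exact binomial counting interval -2.48 to -1.96), the lowest of the member sites. Of the 2436 sites listed at both times in the whole series, 33 (1.35%) had a ratio as low or lower. The site 27.7 kb beyond the end of Krt7 (101455337 to 101455619), 1.55 kb from the keratin gene Krt88 and 3.58 kb from Krt81, held 21.0 tags at 12 h, against 27.6 at 1 h (-0.40 as log2 ratio, -0.67 to -0.12). Its untreated background was the highest of the member sites, with 23 and 22 raw tags in the 12 h and 1 h windows. A further pair of sites, 19.9 kb before the start and 15 kb beyond the end, held 16.3 and 16 tags at 1 h and were not in the 12 h list. The one beyond the end lay nearer to the keratin genes Krt87, at 3.99 kb, and Krt88, at 4.93 kb. The intragenic site had a log2 ratio of -0.74 (-0.88 to -0.60), so that all 3 Krt7 sites with a value at both times were lower in the 12 h library beyond counting error, by unequal amounts.

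**Figure D2:**
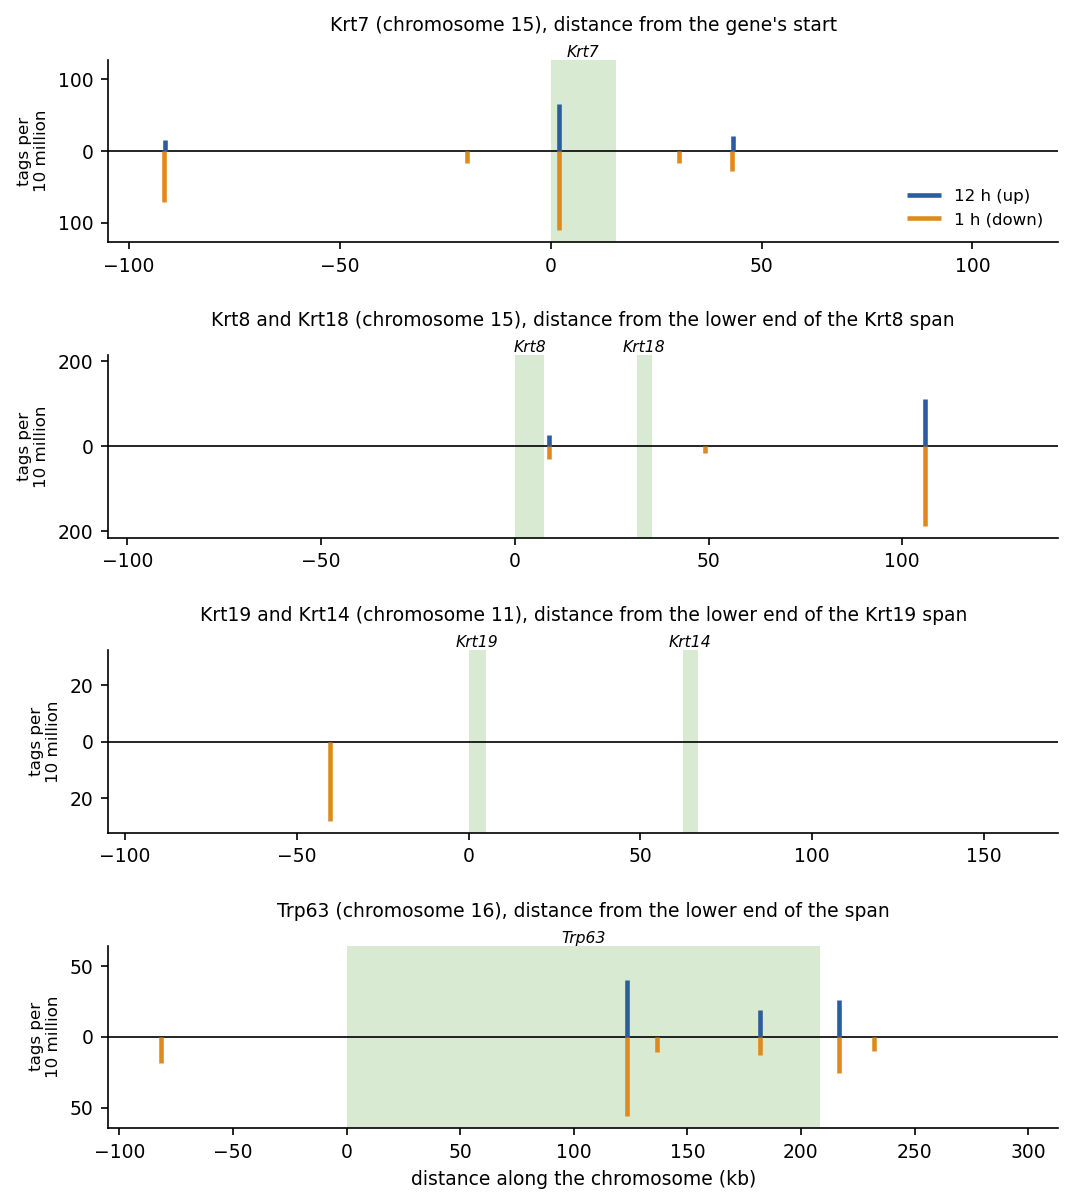
Listed GR sites around Krt7, Krt8 with Krt18, Krt19 with Krt14, and Trp63. The horizontal axis is the distance in kb along the chromosome, shaded bands are gene spans, and bars give normalised tags per library of 10000000 at 12 h (upward) and at 1 h (downward). The strongest site of the keratin loci lies 70.6 kb beyond Krt18, and no bar lies inside Krt8, Krt18, Krt19 or Krt14.

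Krt8 and Krt18, the type II and type I partners of luminal and simple epithelium, lie next to each other and shared all of their sites, with 2 at 12 h and 3 at 1 h. The site closest to a gene lay 1.10 kb upstream of the Krt8 start and 22.8 kb from Krt18 (102005305 to 102005587). It held 27.5 tags at 12 h (24.3 to 31.0) and 28.9 at 1 h (25.5 to 32.7), and the untreated library held 20 and 19 raw tags in those windows. Its log2 ratio of -0.07 (-0.32 to 0.18) was the closest to 0 of the 5 keratin sites with a value at both times, and counting error spans no difference between the libraries. The strongest site of all 15 lay 70.6 kb from Krt18 and 98.3 kb from Krt8, inside Tns2, the gene of the focal adhesion protein tensin 2 (102102504 to 102102786), and 5.47 kb from Eif4b. It held 111.0 tags at 12 h, against 186.5 at 1 h (a log2 ratio of -0.75, -0.86 to -0.64), at a fold over the untreated library of 54.95 at 12 h and 123 at 1 h. It ranked 76 by score at 12 h and 62 at 1 h. It lies inside another gene and, for Krt8, close to the edge of the window. Its assignment to Krt8 and Krt18 rests on distance alone, as does that of every site here. The third site, 13.8 kb beyond Krt18 (102045689 to 102045971), held 15.9 tags at 1 h, over 9 raw tags in the untreated library, and was not listed at 12 h.

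Krt19, a type I keratin of ductal and luminal epithelium, had a single site at 1 h and none at 12 h. It lay 40.4 kb from the gene (chromosome 11, 100100278 to 100100560) and held 28 tags (24.7 to 31.7), with 9 raw tags in the untreated window. The hair keratin genes Krt36 and Krt35 were nearer, at 1.59 and 4.20 kb, and 11 protein-coding genes lay within 100 kb of the site. It was the strongest of the 7 sites in the 1 h list alone. To be listed at 12 h it would have needed 6.82 tags for the fold over the untreated library, as counted in its 1 h window. The tag threshold of 75, read as raw tags, corresponds to 7.67, and both values are under the 1 h value of the site. That 7.67 was not a strict minimum. The lowest score in the 12 h list was 75, and some peaks listed at 12 h held fewer than 7.67 tags. The fold over the surrounding 10 kb at 12 h, a further condition, was not given, nor was the untreated count of a 12 h window there. The 12 h signal at this site thus has no value.

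Krt5 and Krt14, the keratin pair of basal cells, had no site within 100 kb at either time. Krt14 missed the window narrowly, since the Krt19 site lay 103 kb from it at 1 h, while its nearest 12 h site lay 645 kb away. For Krt5 the nearest site was the one next to Krt88, 252 kb away at both times. Krt5 lies in a stretch of 550 kb between that site and the one upstream of Krt8 that spans 21 keratin genes, Krt5 and Krt8 among them, and held no further 1 h peak. Over both clusters, 22 of 53 keratin genes (41.5%) had a site within 100 kb at 12 h, beside 22.6% of all protein-coding genes. At 1 h 33 (62.3%) did, beside 37.9%. The clusters differed at 12 h, with 15 of 26 genes (57.7%) on chromosome 15 and 7 of 27 (25.9%) on chromosome 11. At 1 h the counts were 15 (57.7%) and 18 (66.7%). These counts were made after the values had been seen, neighbours share sites in them, and the differences were not tested.

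Trp63, the gene of the basal regulator p63, had the most sites of all members at 1 h, with 6, and 3 at 12 h, as many as Krt7. They lay in and around a span of 208 kb on chromosome 16. That span is the longest of the members, beside 15.4 kb for Krt7, so the stretch searched was also the longest. For each of these sites Trp63 was the nearest protein-coding gene. The strongest lay inside the gene (25807193 to 25807475) and held 39.9 tags at 12 h (36.0 to 44.1), against 56.0 at 1 h (51.2 to 61.1), over 14 raw tags in the untreated library in both windows. This site was lower at 12 h beyond counting error, with a log2 ratio of -0.49 (-0.68 to -0.30). The site 8.51 kb outside the span (25900458 to 25900740) held 26.1 tags at 12 h and 25.6 at 1 h, within counting error of each other (0.03, -0.24 to 0.29). Another site inside the gene (25865713 to 25865995 at 1 h) went the other way, with 18.8 tags at 12 h against 12.7 at 1 h (0.57, 0.22 to 0.92). It was the single member site with a higher 12 h value beyond counting error. Its listed windows were offset, however, with centres 139 bp apart and 153 bp in common, where the median distance over all shared sites was 19 bp and the 95th percentile 91 bp. The untreated library also held more raw tags in the 12 h window, 20 against 11 in the 1 h window, and the site stood 7.45-fold over it at 12 h, against 9.14-fold at 1 h. The 3 remaining Trp63 sites, at 81.5 kb, inside the gene and at 24.0 kb, held 18.3, 10.5 and 10.0 tags at 1 h and were not listed at 12 h.

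**Figure D3:**
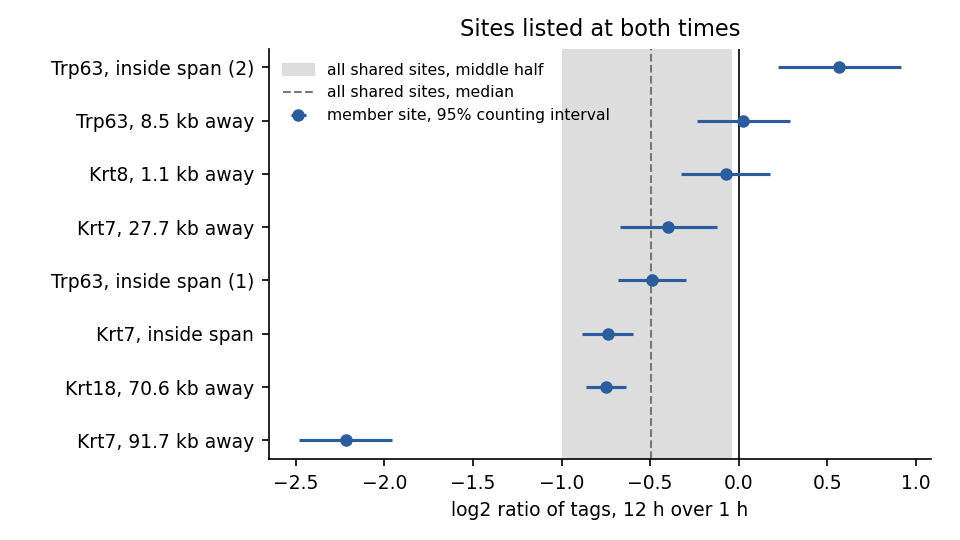
Log2 ratio of tags, 12 h over 1 h, at the 8 member sites listed at both times (points, with exact binomial 95% counting intervals), beside the median (dashed line) and the middle 50% (shaded) of all 2436 shared sites. The sites range from -2.22 at the far Krt7 site to 0.57 at a Trp63 site.

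The transcription factor genes of luminal fate, Gata3, and of alveolar differentiation, Elf5 and Stat5a, had no site within 100 kb at either time. The nearest to Gata3 lay 234 kb from it and held 40.9 tags at 12 h and 79.5 at 1 h, at a fold over the untreated library of 40.5 at 12 h and 126 at 1 h. The nearest to Elf5 lay 202 kb away, with 43.9 tags at 12 h and 31.5 at 1 h. That site is 53.8 kb from Ehf, an epithelial ETS factor gene like Elf5, which is its nearest gene, and its log2 ratio was 0.48 (0.26 to 0.70). For Stat5a, the mediator of prolactin signalling, the nearest 12 h site lay 563 kb away with 11 tags, and the nearest 1 h site 179 kb away with 11.3. An absent peak means that no window met the caller's conditions, and binding below them was not measured.

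The member sites were also counted as a group, beside the whole lists. All 8 sites of the 12 h list overlapped a 1 h peak, beside 84.5% of the whole 12 h list. These were 8 of the 15 sites at 1 h (53.3%), beside 43.2% of the whole 1 h list. Many of the 15 sites lie around the same gene, and neither difference was tested. The shared sites were lower at 12 h beyond counting error in 5 cases, beside 61.8% of all shared sites, and higher in 1, beside 11.5%. Their median log2 ratio was -0.44, against -0.49 over all shared sites. Relative to that overall median, a shift of 0.49 on the log2 scale, 3 of the 8 sites were lower, 3 higher and 2 within counting error. Tags were also divided by the library's total inside listed peaks. That total was larger at 1 h, where the list was longer and all shared sites together held 111334 normalised tags, against 74765.7 at 12 h. With this scaling 1 site was lower and 7 were higher, and 22.7% of all shared sites had a ratio below 0, against 77.2% as deposited. The far Krt7 site was lower and the Trp63 site with offset windows higher under each of these scalings.

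**Figure D4:**
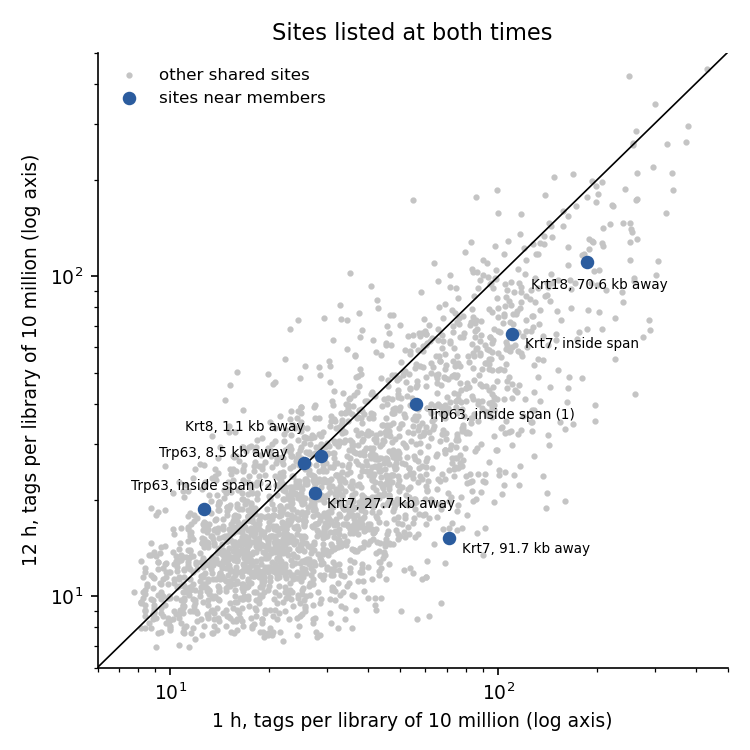
Normalised tags per library of 10000000 at 12 h (vertical) and at 1 h (horizontal), both on log axes, at all 2436 sites listed at both times, with the 8 member sites in blue. The line marks equal tags, and 6 of the 8 member sites lie below it.

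The 7 sites in the 1 h list alone were weaker at 1 h than most of those listed at both times. They held between 10.0 and 28 tags, with a median of 16, while the 8 shared sites held between 12.7 and 186.5, with a median of 42.5. Over the whole 1 h list the median was 14.7 tags for sites listed at 1 h alone and 29.4 for shared ones. Fold over the untreated library ran between 6.63 and 24.7 at the 7 sites, and fold over the local region between 6.12 and 23.9, where both minimums were 6. Just inside those minimums stood the Trp63 site at 24.0 kb, with 6.63, and the Krt7 site at 19.9 kb, with a local fold of 6.12. The Krt19 site stood furthest from them, with a fold of 24.7 over the untreated library and a local fold of 23.9. The lists give no 12 h value for any of the 7. The focus ratio, the caller's fraction of tags placed around the peak centre, ran from 0.699 to 0.934 over the 15 sites, with a median of 0.805 at the 7 and 0.835 at the 8 shared ones, beside 0.841 over the whole list. In the 15 windows of 1 h the untreated library had from 9 to 22 raw tags, with a median of 13, against 11 over the whole list.

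Other genes of the same programmes were counted in the same way, beside the 22.6% of all protein-coding genes at 12 h and 37.9% at 1 h. Of 14 other keratins, 6 (42.9%) had a site within 100 kb at 12 h and 8 (57.1%) at 1 h, above those shares, and many of these are neighbours that share sites. With a window of 25 kb, 1 of the 14 had one at 12 h and 4 at 1 h, beside 9.33% and 17.1% of all genes. The strongest 1 h site for Krt80, an epithelial keratin, was the one inside Krt7. Krt23 and Krt20 shared a site with 15.9 tags at 12 h, against 29.5 at 1 h, which lay nearest to Krt39. Of 20 luminal and mammary differentiation genes 3 (15%) had a site at 12 h and 6 (30%) at 1 h. These lie under the share of all genes by few genes, a difference that was not tested. The 3 were Ehf, Elf3 and Grhl2, each an epithelial transcription factor gene. Grhl2 had 78.5 tags at 12 h, against 72.3 at 1 h, at a site 39.9 kb away, within counting error of each other (log2 ratio 0.12, -0.03 to 0.27). The strongest Elf3 site, inside Lmod1 and 89.3 kb away, held 38.7 tags at 12 h, against 60.6 at 1 h. The oestrogen, progesterone and prolactin receptor genes Esr1, Pgr and Prlr and the milk protein genes Csn2, Wap and Lalba had none at 1 h or 12 h.

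Basal and mesenchymal genes had a site near 4 of 15 (26.7%) at 12 h, close to the 22.6% of all genes. At 1 h they had one near 9 (60%), beside 37.9%. Within 25 kb the 12 h count was 1 of 15, beside 9.33% of all genes. Sox10, a neural crest and basal progenitor factor gene, held 173 tags at 12 h, against 263 at 1 h, 23.3 kb away and inside Micall1 (-0.60 as log2 ratio, -0.69 to -0.51). Cdh2, the N-cadherin gene, held 64.1 tags at 12 h, against 62.7 at 1 h, 80.1 kb away (0.03, -0.13 to 0.20). Acta2, smooth muscle actin of myoepithelial cells, held 12.0 tags at 12 h, against 21.9 at 1 h, at a site 72.6 kb away and next to Fas. Genes of immune, endothelial, fat and nerve cells had a site near 4 of 15 (26.7%) at 12 h, the same count as the basal list, and near 6 (40%) at 1 h. The strongest, 71.7 kb from the neuronal gene Rbfox3 and 4.89 kb from Enpp7, held 49.6 tags at 12 h, against 65.3 at 1 h. Mbp, of myelin, held 26.4 tags at 12 h, against 60.1 at 1 h, at a site inside the gene. Pecam1, of endothelium, held 11.3 tags at 12 h, against 45.5 at 1 h, also inside the gene. The pan-leukocyte gene Ptprc and the fat genes Adipoq, Fabp4 and Plin1 had none. No difference between these lists was tested.

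**Figure D5:**
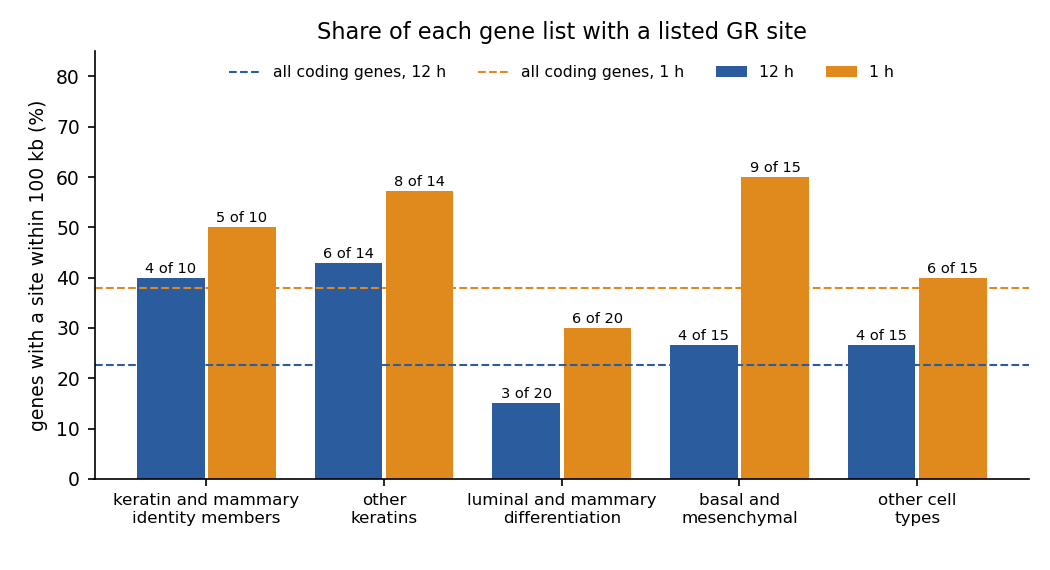
Percentage of genes with a listed GR site within 100 kb at 12 h (blue) and at 1 h (orange) for the 10 members and 4 other gene lists, with the counts above the bars. Dashed lines mark all protein-coding genes, at 22.6% for 12 h and 37.9% for 1 h.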

How the data were processed

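GR ChIP-seq peak lists of 3 libraries (untreated, 1 h and 12 h of corticosterone, 1 each) were analysed; an input sample in the labels was not used here. Per the submitters' processing notes, bcl2fastq 2.17, Bowtie2 2.2.6 and HOMER were used, on mm10. Per the file headers, HOMER findPeaks called peaks in each library (factor style, false discovery rate 0.001, tag threshold 75, folds of at least 6 over control and over the local 10 kb). Both treated lists had the untreated ChIP library as control, so every listed site exceeds it by construction and shares that control between lists.

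Per the file headers, the signal is the tag count normalised by the authors to a library of 10000000 tags; the deposited fold over control and over the local region are ratios; the focus ratio, a deposited fraction, and the peak score are the caller's own values, the score being used for ranks and filters. Control tags were deposited as raw tags, with 0.5 in a few rows elsewhere. Tags of treated libraries, deposited after scaling to the untreated library, were scaled back and gave whole tags at 100% of peaks (tolerance 0.1). For the untreated peak, the authors deposited a raw tag count.

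Peak centres were assigned to RefSeq gene spans (GRCm38.p6, the assembly of mm10) within 100 kb, and lists were paired by overlap of 1 bp or more. Coordinates are those of the 1 h list, as deposited. The 12 h over 1 h ratio divides raw tags by library totals and carries an exact binomial 95% interval; the code was tested on simulated data. With 1 library per condition no test across conditions exists, and intervals compare libraries. Python 3.11.15, pandas 2.3.3, numpy 2.4.6, scipy 1.17.1 and matplotlib 3.10.9 were used. Named are all members with each site, up to 2 of the nearest genes where they share a site or lie nearer to it, and up to 3 genes per other list by their strongest 1 h site. Genes without a site, the nearest sites beyond 100 kb and the keratin cluster counts were added after values were seen. Members and lists were chosen with earlier results of these data known.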

Additional observations from a re-analysis of the deposited data

How the results depend on the processing

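Of the member counts, the number of 12 h sites was 8, and 5 with a window of 25 kb, 5 with 10 kb, 5 when a site counted for its nearest protein-coding gene alone, and 3 when peaks had to stand at 2 or more times each minimum of the caller. The number of 1 h sites, 15, became 6 with 10 kb and 6 with the stricter minimums. Of the whole lists, 33.6% of the 12 h peaks and 36.7% of the 1 h peaks met those stricter minimums. Members with a site at 1 h numbered 3 of 10 with 10 kb, beside 11.8% of all protein-coding genes, and shared sites 5 with 25 kb. The median log2 ratio of the shared sites, -0.44, was -0.072 with 25 kb, where 5 sites remain, 0.052 relative to the median of all shared sites and 0.60 with tags per library total inside listed peaks. These last scalings add 0.49 and 1.05 to every site by construction. Under the first, the Krt7 site next to Krt88 became 0.10 and the strongest Trp63 site 0.0060. The site upstream of Krt8 and the Trp63 site at 8.51 kb, within counting error as deposited, became higher beyond it. Their values were 0.42 (0.17 to 0.67) and 0.52 (0.26 to 0.78). Under the second, the Krt7 site inside the gene became 0.31, the one next to Krt88 0.65, the site inside Tns2 0.30 and the strongest Trp63 site 0.56. The site upstream of Krt8 became 0.98 and the Trp63 site at 8.51 kb 1.07. Centres within 100 bp left 7 shared sites, without the offset Trp63 site, and a median of -0.49. Within 25 kb the members had a site at 4 of 10 genes at 12 h and 4 at 1 h. The other keratin list had one at 1 of 14 genes at 12 h and 4 at 1 h, and the luminal list at 0 and 1 of 20. The basal list had one at 1 and 4 of 15, and the list of other cell types at 4 and 5 of 15. Of all protein-coding genes, 9.33% had one at 12 h and 17.1% at 1 h, and no difference was tested. No paired analysis was possible because each group has 1 library. Depth limits the weakest sites most, where 91 raw tags gave an interval of 8.09 to 12.3 around 10.0 tags.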
